A study of Mus musculus with 8 samples.

Results

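The nuclear genes of oxidative phosphorylation were measured in lower first molars of mouse embryos. Mitochondria make ATP by passing electrons from nutrients through complexes I to IV of the inner membrane and letting protons return through complex V, the ATP synthase. Complex I (NADH dehydrogenase) and complex II (succinate dehydrogenase) take up the electrons, complex III (cytochrome bc1) hands them to cytochrome c, and complex IV (cytochrome c oxidase) passes them to oxygen. Most subunits are encoded in the nucleus and imported, and the rest are encoded by mitochondrial DNA. In forming teeth these genes belong to the general energy supply of the enamel organ, the dental papilla and the blood vessels around them, and some subunits have forms restricted to muscle, lung or testis.

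Members were chosen by symbol alone, as the protein-coding genes whose names begin with Nduf followed by a, b, c, s or v, with Uqcr, with Cox and a digit from 4 to 8, or with Atp5, and Sdha to Sdhd. This gave 93 genes of 43629 identifiers. By their known roles, 38 belong to complex I, 4 to complex II, 8 to complex III, 18 to complex IV and 16 to complex V. The naming rule also caught 8 assembly factors of complex I (the Ndufaf genes), which help to build the complex and are not part of it, and Atp5s, which encodes factor B of the ATP synthase. These 9 are counted apart from the complexes below. Ndufa4 and Ndufa4l2 are kept with complex I because of their names, although NDUFA4 is now usually described as a subunit of complex IV, and Cox7a2l, kept with complex IV, is a factor that joins complexes III and IV.

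RNA was taken at E18.5 from 4 K14:cre; Jagged1 fl/fl embryos (K14J26, K14J28, K14J29 and K14J30, written K14Cre;Jagged1fl/fl below) and 4 Jagged1 fl/fl littermates without Cre (J3, J5, J6 and J7, written WT). Both groups carry the floxed Jagged1 alleles. The keratin 14 promoter drives Cre in epithelium only, and whole molars were sequenced with the left and right molar of an embryo pooled, so fewer cells of a type and less RNA per cell cannot be told apart in these values. Litter and sex of single embryos were not given in the sources used here.

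Totals ran from 17327224 to 29792467 counts per embryo, and the members took between 0.796% and 1.04% of them. Jag1, the deleted gene, lay at 95.2 to 104 CPM (counts scaled to library size, with the TMM factors of edgeR) in WT and at 34.0 to 57.1 CPM in K14Cre;Jagged1fl/fl, which goes with the labels. The summed level of 5 ameloblast genes, which serve enamel formation, lay between 557 and 3254 CPM in WT and, in K14Cre;Jagged1fl/fl, from 3503 CPM in K14J28 through 9643 CPM (K14J30) and 25820 CPM (K14J29) to 114369 CPM in K14J26, and 4 of the 5 were called higher (adjusted p under 0.05 by edgeR). Markers of other cells of the tooth and jaw also differed, with 1 of 2 odontoblast genes (Dspp), 3 of 5 osteoblast genes (Bglap, Bglap2 and Sp7) and 1 of 6 dental epithelium genes (Krt14) called higher, and 2 of 6 dental mesenchyme genes higher (Col1a1 and Col1a2) and 2 lower (Msx1 and Twist1). These counts stand beside 9.52% of all tested genes called higher and 6.61% called lower. Epcam, also of the dental epithelium, was lower in every K14Cre;Jagged1fl/fl embryo than in any WT embryo (log2 fold change -0.51, adjusted p = 0.0527 by edgeR). DESeq2 called 4 of the 6 dental epithelium genes higher and 1 lower, where it called 13.1% and 10% of all genes. The summed level of 11 skeletal muscle genes was 439 CPM in J6 and 223 CPM in J7, against 6.65 to 21.2 CPM in the other 6 embryos. Xist, the RNA of the inactive X chromosome, reached 1930 CPM (K14J28) and 1468 CPM (K14J29), and no more than 1.09 CPM elsewhere. Xist was thus detected only in K14Cre;Jagged1fl/fl embryos, and the muscle genes were high only in WT embryos. These differences cannot be fully told apart from the groups. A fit with detected Xist as a covariate takes the group difference from K14J26 and K14J30 against WT. With detected Xist as a covariate, when 7.02% of all tested genes were called higher and 3.56% lower, none of the members was called (Ndufa10, Atp5g2 and Ndufaf2, called below, kept estimates of -0.20, -0.25 and -0.48 with adjusted p = 0.0758, 0.0837 and 0.0728 by edgeR), and the part of the ameloblast, muscle and other marker genes was not tested beyond the values given without single embryos.

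Some promoters of these genes hold short sequence motifs that are long known from nuclear genes of the respiratory chain. RefSeq promoter windows on GRCm38.p6, from 250 bases before to 50 bases after a transcript start, were found for 74 of the 93 genes, with 79 windows in all. The core of the NRF1 site, GCGCATGC on either strand, was present in 15.2% of these windows and in 3.52% of 21263 windows of all protein-coding genes. The GABP/ETS letters CCGGAAG were present in 22.8% of them against 11.6%, and the YY1 letters AAGATGG in 13.9% against 6.24%. At least 1 of the 3 was found in 43.0% of the members' windows and in 19.5% of all protein-coding windows. The NRF1 core and its reverse complement overlap where the site is a full palindrome. The shares with at least 1 motif were 14 of 35 windows in complex I, 2 of 3 in complex II, 3 of 5 in complex III, 4 of 13 in complex IV and 7 of 16 in complex V. A match is a description of the letters and does not show that a factor binds there.

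The NRF1 core is shown for the first member by symbol in each complex and for the first assembly factor, read 5′ to 3′ on the strand of the gene, with the matching letters in capitals. Ndufa11 is at chr17:56717691-56717720 (+), Sdhb at chr4:140961206-140961235 (+), Uqcr11 at chr10:80406807-80406836 (-), Cox6a1 at chr5:115349102-115349131 (-), Atp5g2 at chr15:102671071-102671100 (-) and Ndufaf4 at chr4:24897959-24897988 (+).
Ndufa11: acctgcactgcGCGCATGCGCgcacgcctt
Sdhb: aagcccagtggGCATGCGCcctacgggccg
Uqcr11: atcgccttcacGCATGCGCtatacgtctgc
Cox6a1: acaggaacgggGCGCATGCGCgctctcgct
Atp5g2: tggctccggccGCGCATGCGCagagccttc
Ndufaf4: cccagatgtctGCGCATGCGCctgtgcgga

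The levels of the members differed widely between complexes and within them. Per kilobase of merged exons, the median level over the 8 embryos was 85.9 CPM in complex III, 74.0 in complex V, 62.8 in complex IV, 48.0 in complex II and 37.2 in complex I, and 8.04 among the assembly factors. The order of the complexes depends on the gene length used. Per kilobase of the principal transcript, complex V came first with 163 CPM, followed by complex IV with 144, complex III with 133, complex II with 70.9 and complex I with 70.3, and the assembly factors stayed lowest with 12.8. The catalytic core of the ATP synthase stood highest by merged exons, with 289 CPM per kilobase for Atp5a1 (the alpha subunit) and 257 for Atp5b (the beta subunit). The highest members of the other complexes were Cox6b1 with 227 and Cox8a with 194 in complex IV, Uqcrh (the hinge subunit) with 160 in complex III, Ndufa2 with 125 in complex I and Sdhd, a membrane anchor, with 72.3 in complex II. By principal transcript the highest were instead Atp5b (567) in complex V, Cox4i1 (358) in complex IV, Ndufa4 (238) in complex I and Sdhb (92.3) in complex II, while Uqcrh (363) stayed first in complex III. The lowest were Cox8c and Cox7b2, which are known from testis, with at most 1 and 5 counts in any embryo. Neither reached the count filter, and 91 members were tested.

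**Figure D1:**
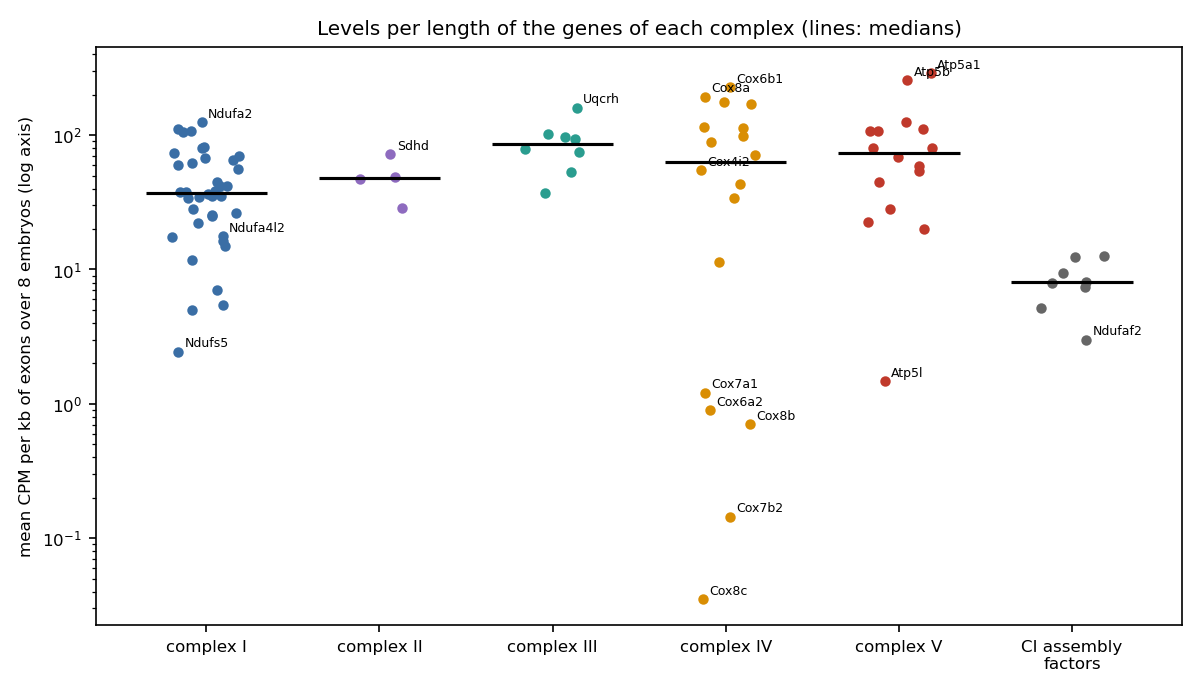
Mean level per kilobase of merged exons over all 8 embryos (CPM per kb, log axis) for the genes of each complex and the complex I assembly factors, with 1 point per gene and a line at the median. The assembly factors lie around 8.04 and complex IV spreads over the widest range, down to Cox8c.

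Deletion of Jagged1 in the epithelium was compared with WT for every gene by the quasi-likelihood test of edgeR on 17129 genes, and p-values were adjusted over all of them by the Benjamini-Hochberg method. None of the 91 members rose at an adjusted p under 0.05, where 9.52% of all tested genes rose, and 3 fell, where 6.61% of all tested genes fell. At an unadjusted p under 0.05, edgeR gave 4 members higher and 13 lower, where 19.1% and 15.7% of all tested genes were. DESeq2 called 1 member higher and 8 lower after adjustment, where it called 13.1% and 10% of all genes. The 3 members that fell were Ndufa10 in complex I, Atp5g2 in complex V and the assembly factor Ndufaf2. The same 3 genes were called after the counts of the annotated processed copies were added to their parent genes.

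Estimates were close to 0 for most members. The median log2 fold change was -0.03 over the 91 members and 0.01 over all tested genes, and 78 members had an estimate within 0.2 of 0 on the log2 scale, against 46.5% of all tested genes. The 95% interval of the fold change lay inside 0.5 on the log2 scale in either direction for 79 of the 91 members, and for 44.9% of all tested genes, whose median level and spread differ from those of the members. The study's rule for differential expression asks for p up to 0.05 and a fold change of at least 0.5, which was read here as unadjusted p and as 0.5 on the log2 scale. By these criteria Ndufa1 was higher, and Cox6a2 and Cox7a1 were lower. They called 8.33% of all tested genes higher and 5.85% lower. Cox6a2 reached the count filter only through the WT embryos J6 and J7, so it could only be called lower. The values of every K14Cre;Jagged1fl/fl embryo lay below those of every WT embryo for 10 members and above them for 1, where 11.6% and 12.6% of all tested genes did so.

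**Figure D2:**
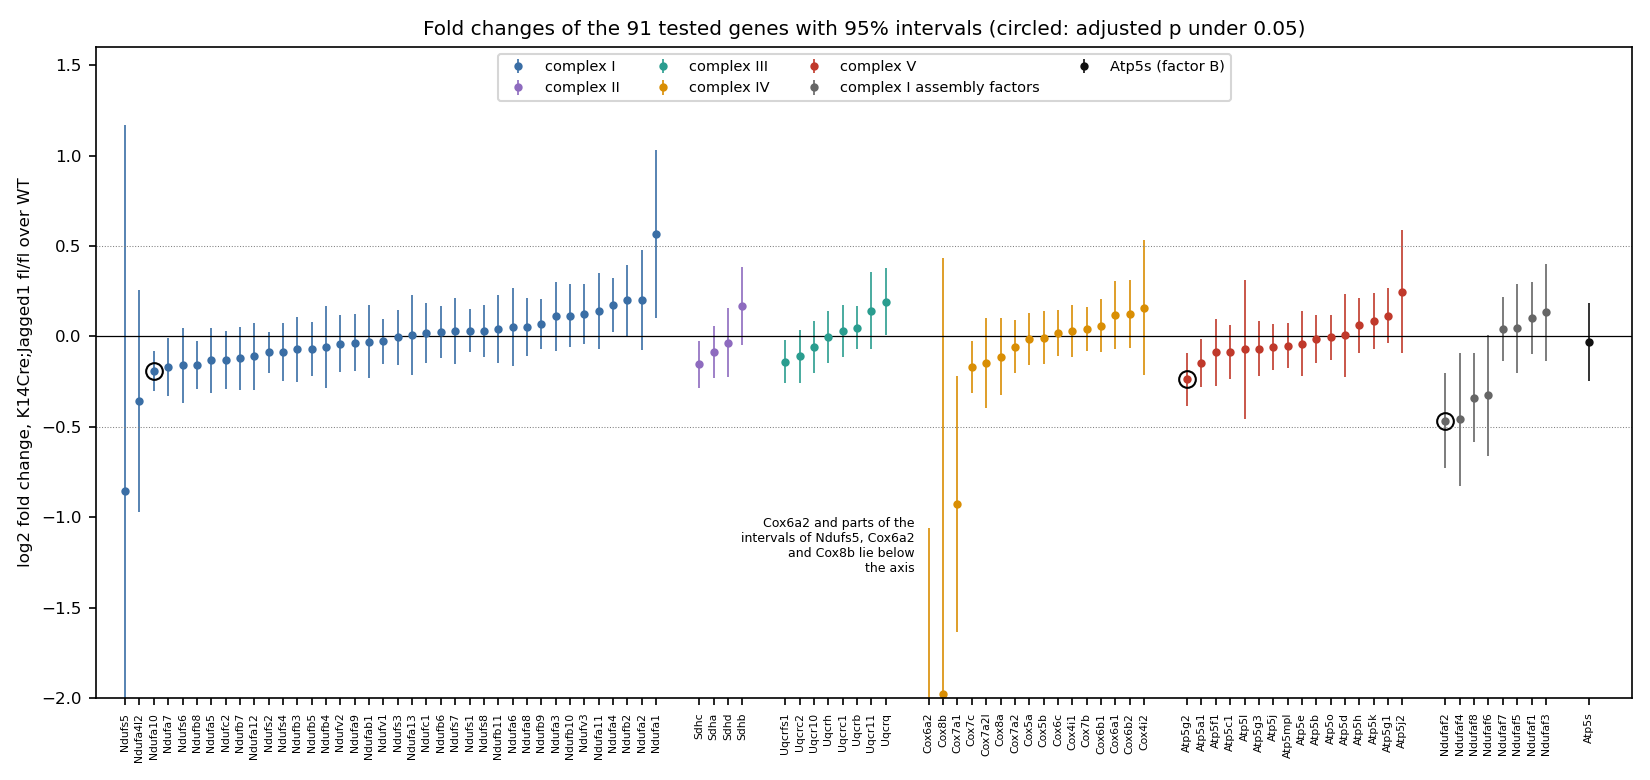
Log2 fold change (K14Cre;Jagged1fl/fl over WT) of each tested gene with its 95% interval, grouped by complex, with a circle around the 3 genes with an adjusted p under 0.05 and dotted lines at 0.5 in either direction. Most intervals lie between the dotted lines, and the point of Cox6a2 at -3.36 and parts of the intervals of Ndufs5, Cox6a2 and Cox8b lie below the axis.

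The 5 complexes had medians within a narrow band. The median log2 fold change was -0.02 in complex I (38 genes), -0.06 in complex II (4 genes), 0.01 in complex III (8 genes), -0.01 in complex IV (16 tested genes) and -0.05 in complex V (16 genes), and it was -0.14 over the 8 assembly factors. Higher and lower estimates were mixed, with 18 above and 20 below 0 in complex I, 1 and 3 in complex II, 4 and 4 in complex III, 7 and 9 in complex IV and 5 and 11 in complex V. One gene fell in complex I and 1 in complex V. No gene of complexes II, III and IV was called by edgeR. Without adjustment, 3 genes of complex I were higher and 3 lower, 2 of complex V were lower, 1 of complex II was lower, 1 of complex III was higher and 1 lower, and 3 of complex IV were lower, all at p under 0.05. DESeq2 called 1 higher and 1 lower in complex I, 1 lower in complex III, 1 in complex IV and 2 in complex V.

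The embryos differed from each other more than the groups did. The median deviation of the complex I genes from their WT mean was 0.06, 0.02, -0.01 and -0.11 (log2) in J3, J5, J6 and J7, and -0.04, -0.11, 0.02 and 0.05 in K14J26, K14J28, K14J29 and K14J30. The low embryos were J7 and K14J28, and the same pair was lowest in complexes III, IV and V, with -0.09 and -0.08 in complex III, -0.09 and -0.10 in complex IV and -0.08 and -0.08 in complex V. The groups overlapped in every complex. In J7, 9 of the 91 members lay above their WT mean, and 15 did so in K14J28, against 74 in J3 and 59 in K14J30. The 295 tested protein-coding genes with a principal transcript of up to 700 bases had median deviations of -0.09 in J7 and -0.11 in K14J28, and the 13357 with one over 1200 bases had 0.01 and 0.02. In K14J26 these 295 genes were at -0.08, while the 33 members of that length were at 0.03. The 29 members over 1200 bases were also low in J7 and K14J28, at -0.06 and -0.05, and the part of transcript length in these shifts was not tested. K14J28 also held the highest Csf1r (92.8 CPM, against 26.6 to 44.9 CPM elsewhere) and Cd68 (42.3 against 11.6 to 20.9 CPM), both macrophage genes. Adgre1, C1qa and C1qb, of the same list, were not highest there. The osteoblast gene Ibsp was at 448 CPM there against 141 to 189 CPM elsewhere. The sum of the 5 osteoblast genes was not highest there, at 1088 CPM against 1175 CPM in K14J26 and 1039 CPM in K14J29 and K14J30. The summed genes of red blood cells were at 1673 CPM against 685 to 1333 CPM. The part of these cells in the shifts was not tested.

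**Figure D3:**
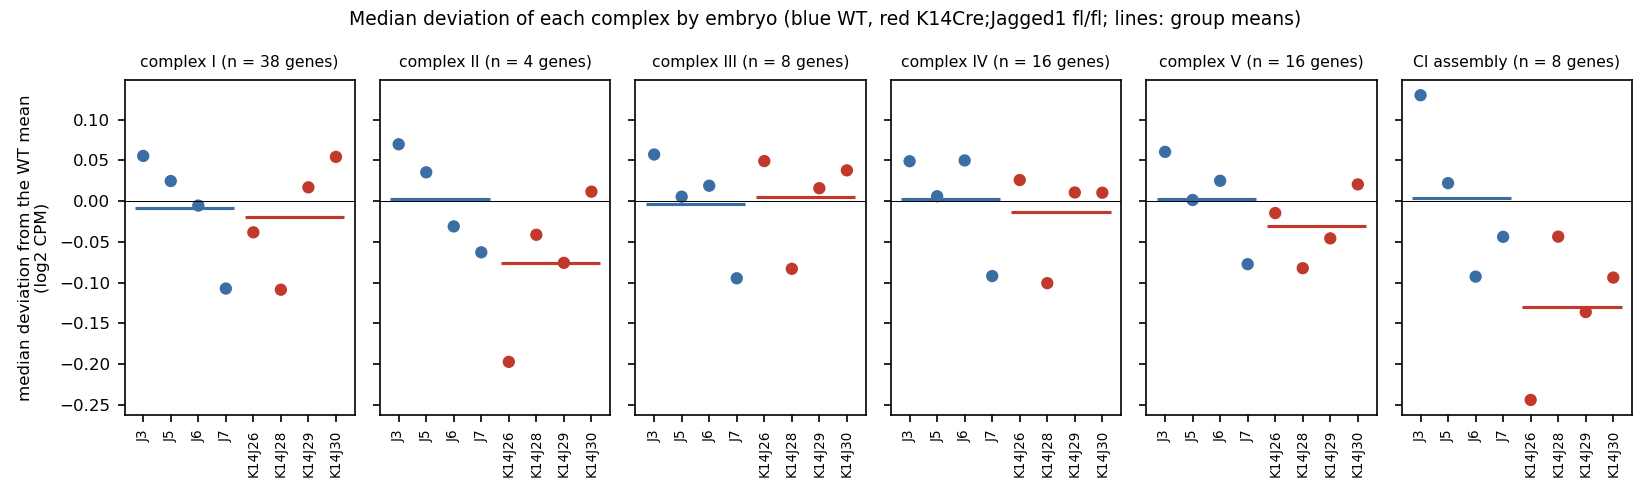
Median deviation from the WT mean (log2 CPM) over the genes of each complex and over the complex I assembly factors, by embryo, with blue points for WT, red points for K14Cre;Jagged1fl/fl and lines at the group means. J7 and K14J28 lie lowest in complexes I, III, IV and V, and K14J26 lies lowest in complex II and among the assembly factors.

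K14J26, the embryo with the highest ameloblast genes, also had the most scattered members. In it 39 of the 91 members deviated by more than 0.2 (log2) from the WT mean, 16 upward and 23 downward, against 20 in K14J28, 17 in K14J29 and 15 in K14J30. In the WT embryos, which form the mean themselves, 3 to 9 members did so. All tested genes were not counted in this way, so the scatter cannot be called particular to the members. The largest upward deviations in K14J26 were 1.11 for Ndufa1, 0.63 for Atp5j2 and 0.49 for Ndufa2, and all 3 had their next highest K14Cre;Jagged1fl/fl values in K14J29 or K14J30 and their lowest in K14J28.

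Ndufa10, an accessory subunit of complex I near its quinone-reducing arm (chr1:92439010-92473860, GRCm38), fell by a small and even amount. It was at 124, 122, 120 and 119 CPM in J3, J5, J6 and J7, and at 103, 107, 105 and 109 CPM in K14J26, K14J28, K14J29 and K14J30. No K14Cre;Jagged1fl/fl embryo reached the lowest WT embryo. The means were 121 ± 2.29 and 106 ± 2.46 CPM (SD, n = 4), with a log2 fold change of -0.19 (SE 0.05) and an adjusted p of 0.0320 by edgeR. The call was made in 10 of 19 alternative fits, with adjusted p from 0.00167 to 0.179, and was lost when any of J3, J5, J6, J7 or K14J29 was left out.

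Atp5g2 (chr15:102662864-102672352), the promoter of which holds the NRF1 core printed above, encodes subunit c of the ATP synthase, the unit of its rotor ring. It was at 51.2, 51.5, 53.2 and 49.8 CPM in WT and at 40.6, 41.9, 46.0 and 46.0 CPM in K14Cre;Jagged1fl/fl, again without overlap. Its log2 fold change was -0.24 (SE 0.06, adjusted p = 0.0385 by edgeR), and -0.13 (adjusted p = 0.299) with the length and GC trend removed. The call was made in 9 of 19 alternative fits, with adjusted p from 0.0102 to 0.299, and was lost without any one of J3, J5, J6, J7 or K14J29. Subunit c is also encoded by Atp5g1 and Atp5g3, which give the same mature protein. Atp5g1 was higher by 0.11 (SE 0.07, adjusted p = 0.255) and Atp5g3 lower by -0.07 (SE 0.07, adjusted p = 0.498) on the log2 scale, and neither passed the test. Per kilobase of exons, Atp5g2 made up 19.1% ± 0.633 of the 3 genes in WT and 16.98% ± 0.361 in K14Cre;Jagged1fl/fl (SD, n = 4), Atp5g1 13.4% ± 0.266 and 15.2% ± 0.674, and Atp5g3 67.6% ± 0.707 and 67.8% ± 0.918. The shares of Atp5g1 and Atp5g2 did not overlap between the groups, and those of Atp5g3 did. With principal transcript lengths the mean shares in WT and K14Cre;Jagged1fl/fl were 16.7% and 15.0% for Atp5g2, 5.33% and 6.12% for Atp5g1 and 78.0% and 78.9% for Atp5g3. A copy of Atp5g2 identical over 645 bases, Gm10175, held counts equal to 5.19% of those of Atp5g2.

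Ndufaf2 (chr13:108002715-108158623), a chaperone that attaches to a late intermediate of complex I, was expressed at a lower level. It was at 11.6, 10.7, 9.29 and 9.999 CPM in WT and at 6.83, 8.39, 6.83 and 7.99 CPM in K14Cre;Jagged1fl/fl, which rests on 142 to 296 counts per embryo. The groups did not overlap. On the log2 scale the change was -0.47 (SE 0.12, adjusted p = 0.0307 by edgeR), called in 13 of 19 alternative fits with adjusted p from 0.00479 to 0.146, and lost without J3, J5, J7 or K14J29.

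**Figure D4:**
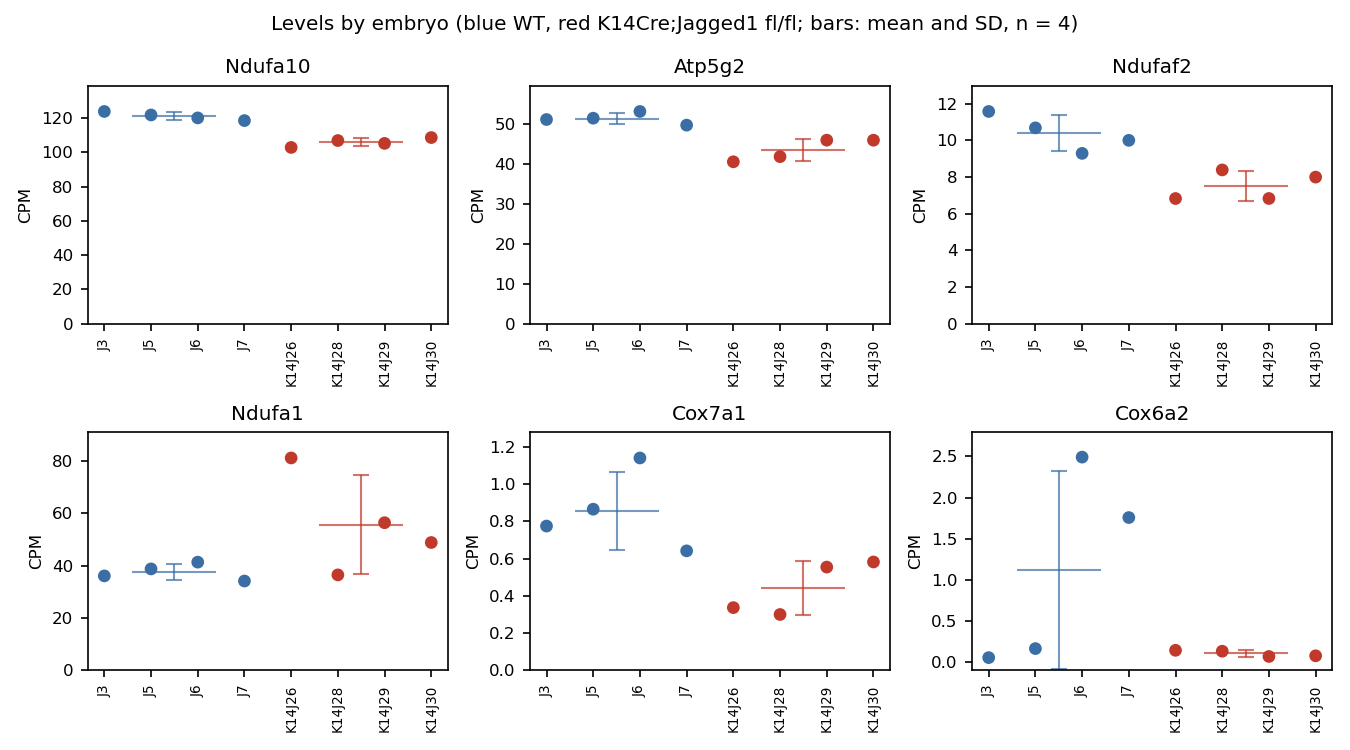
Levels (CPM) by embryo of the 3 genes that fell (top) and the 3 genes past the study's criteria (bottom), with blue points for WT, red points for K14Cre;Jagged1fl/fl and bars at the mean and SD of 4 embryos. The groups are apart for Ndufa10, Atp5g2, Ndufaf2 and Cox7a1, and the WT values of Cox6a2 come from J6 and J7.

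The other assembly factors were split. Ndufaf8 (log2 fold change -0.34, SE 0.11, adjusted p = 0.0626), Ndufaf4 (-0.46, SE 0.16, adjusted p = 0.0818) and Ndufaf6 (-0.33, SE 0.15, adjusted p = 0.151) did not pass the test, and the 4 remaining estimates were positive, from 0.04 to 0.13. Ndufaf4 was at 48.4 to 63.6 CPM in WT. The K14Cre;Jagged1fl/fl values went up from K14J26 (31.5 CPM) through K14J29 (34.8 CPM) and K14J30 (40.8 CPM) to K14J28 (54.5 CPM), the reverse of the order of the ameloblast genes in these embryos. Ndufaf6 followed that order too, at 4.42, 5.23, 6.13 and 6.99 CPM, and Ndufaf2 gave 6.83, 6.83, 7.99 and 8.39 CPM. Ndufa1 and Atp5j2 ran the other way, from 81.1 and 92.9 CPM in K14J26 down to 36.4 and 51.9 CPM in K14J28. Among WT embryos Ndufaf6 was highest in J6 (7.42 CPM), which also had the highest ameloblast genes of WT. How many of all tested genes follow either order was not counted, and the part of the ameloblast genes in this was not tested. DESeq2 called Ndufaf2, Ndufaf4 and Ndufaf8 lower, and without K14J28 edgeR called Ndufaf4 (-0.64, adjusted p = 0.00824), Ndufaf8 (-0.40, adjusted p = 0.0347) and Ndufaf6 lower as well.

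In complex I, Ndufa1 (chrX:37187588-37191163), a small X-linked subunit of the membrane arm, had the largest positive estimate. It was at 36.0, 38.7, 41.3 and 34.1 CPM in WT and at 81.1, 36.4, 56.4 and 48.8 CPM in K14J26, K14J28, K14J29 and K14J30. K14J28 lay within the WT range and the other K14Cre;Jagged1fl/fl embryos lay above it. Its log2 fold change was 0.57 (SE 0.21) with an unadjusted p of 0.0219 and an adjusted p of 0.0876 by edgeR. Without K14J26 it was 0.33, below the criterion, and without K14J28 it was 0.72 and passed the test (adjusted p = 0.0143). The call by the study's criteria was also lost without J3, without J7, without both J6 and J7 and with library size only. DESeq2 also called it higher. The other X-linked members, Ndufb11 (0.04, SE 0.08) and Cox7b (0.04, SE 0.05), showed estimates near 0 on the log2 scale.

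Ndufa4 was the member whose K14Cre;Jagged1fl/fl values all lay above WT, at 143 to 166 CPM against 126 to 141 CPM, with a log2 fold change of 0.17 (SE 0.07) and an adjusted p of 0.0974. Its relative Ndufa4l2, which is known as a gene induced by low oxygen, was at 16.7 to 25.7 CPM in WT and at 9.28, 13.4, 22.0 and 23.1 CPM in K14J26, K14J28, K14J29 and K14J30. Ndufb8, an accessory subunit (-0.16, SE 0.06, adjusted p = 0.0930), shares exon bases on its strand with a readthrough gene, Gm20538, so its counts may be split.

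In complex II, Sdhc, a membrane anchor, was at 95.1 to 104 CPM in WT and at 86.0 to 94.3 CPM in K14Cre;Jagged1fl/fl, with a log2 fold change of -0.16 (SE 0.06, adjusted p = 0.0938). Sdhb, the iron-sulphur subunit, was at 91.1 to 104 CPM in WT and at 97.4 to 132 CPM in the other group (0.17, SE 0.10, adjusted p = 0.248, and 0.08 without K14J26). Sdha, the flavoprotein, differed by -0.09 (SE 0.06) and Sdhd by -0.03 (SE 0.08). None of the 4 genes of the complex passed the test, and their signs differed.

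In complex III, Uqcrfs1, the Rieske iron-sulphur protein, was at 108 to 118 CPM in WT and at 99.7 to 104 CPM in K14Cre;Jagged1fl/fl (-0.14, SE 0.05, adjusted p = 0.0933 by edgeR, and 0.0460 by DESeq2). Uqcrq, a small accessory subunit, was at 56.8 to 67.3 CPM against 64.1 to 78.6 CPM (0.19, SE 0.08, adjusted p = 0.131), and it was called without K14J28 (0.24, adjusted p = 0.0431). Uqcrh stood at 199 ± 12.0 CPM in WT and 198 ± 8.96 CPM in K14Cre;Jagged1fl/fl (SD, n = 4), and the 95% interval of its log2 fold change ran from -0.15 to 0.14. Cyc1, the cytochrome c1 of the same complex, which the naming rule leaves out, was at 112 to 119 CPM in WT and 102 to 117 CPM in the other group.

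Complex IV holds several forms that are known from certain tissues, and 3 muscle forms, Cox6a2, Cox8b and Cox7a1, had the most negative estimates of the whole list at low counts. Cox6a2, the heart and skeletal muscle form of subunit 6a, had 1, 4, 48 and 52 counts in J3, J5, J6 and J7 and 3, 4, 2 and 2 counts in K14J26, K14J28, K14J29 and K14J30. The high embryos were J6 and J7, which also held the skeletal muscle genes, and J3 and J5 lay with the K14Cre;Jagged1fl/fl embryos. The log2 fold change was -3.36 (SE 1.02, adjusted p = 0.0529 by edgeR), and Cox6a2 was called in 4 of the 15 alternative fits that tested it, without J3 (-3.74, adjusted p = 0.0492), with upper-quartile scaling, with no count filter and by DESeq2. Cox8b, a muscle form of subunit 8, followed the same embryos with 0, 1, 15 and 24 counts in WT and 0, 5, 1 and 5 in K14Cre;Jagged1fl/fl (-1.98, SE 1.07, adjusted p = 0.220). Neither gene reached the count filter in the fits without J6, without J7 or without both. With J6 and J7 present, the summed muscle genes moved with Cox6a2 and Cox8b, and their part in the difference was not tested further.

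Cox7a1, the muscle form of subunit 7a, had 14, 21, 22 and 19 counts in WT and 7, 9, 16 and 15 counts in K14Cre;Jagged1fl/fl, or 0.642 to 1.14 CPM against 0.299 to 0.582 CPM, without overlap. The estimate was -0.93 (SE 0.32, unadjusted p = 0.0159, adjusted p = 0.0725 by edgeR). Among the WT embryos it was at 1.14 CPM in J6 and 0.642 CPM in J7, which held the skeletal muscle genes, and at 0.775 CPM in J3 and 0.866 CPM in J5. The estimate was -0.77 without J6, and the part of the muscle genes in it was not tested further. It made up 1.35% ± 0.309 of Cox7a1 and Cox7a2 together per kilobase in WT and 0.725% ± 0.205 in K14Cre;Jagged1fl/fl (SD, n = 4).

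The widely expressed partners carried the bulk of each pair. Cox6a2 was at most 2.10% of the 6a pair per kilobase in any embryo, and Cox8b at most 1.24% of the subunit 8 genes. Cox4i2, the form of subunit 4 known from lung and from low oxygen, held a larger share, between 20.6% and 25.98% in WT and between 20.7% and 28.3% in K14Cre;Jagged1fl/fl, and its log2 fold change was 0.16 (SE 0.17), with 0.04 without K14J30 and 0.28 without K14J28. With principal transcript lengths these shares were lower, from 12.1% to 17.3%. Cox6b2, known from testis, was at 11.4 to 12.7 CPM in WT and 12.6 to 14.2 CPM in the other group. Among the main forms, Cox7c was at 80.2 to 87.2 CPM in WT and 68.3 to 78.3 CPM in K14Cre;Jagged1fl/fl (-0.17, SE 0.06, adjusted p = 0.0997). Cox4i1 differed by 0.03 (SE 0.06) and Cox6b1 by 0.06 (SE 0.06).

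In complex V, Atp5a1 was at 927 to 977 CPM in WT and at 811 to 904 CPM in K14Cre;Jagged1fl/fl, without overlap, with a log2 fold change of -0.15 (SE 0.06) and an adjusted p of 0.109 by edgeR. It was called lower by DESeq2 (adjusted p = 0.0307) and with the length and GC trend removed (-0.19, adjusted p = 0.0460). Atp5b, its partner in the catalytic head, was at 1093 ± 18.4 CPM in WT and 1081 ± 51.4 CPM in K14Cre;Jagged1fl/fl (SD, n = 4), with a 95% interval from -0.15 to 0.12 on the log2 scale. Atp5j2, subunit f of the membrane part, was at 55.1 to 64.3 CPM in WT and at 92.9, 51.9, 73.6 and 67.8 CPM in K14J26, K14J28, K14J29 and K14J30 (0.25, SE 0.15, adjusted p = 0.271). The estimate was 0.10 without K14J26, and without K14J28 it was 0.37 and passed the test (adjusted p = 0.0366).

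Annotated processed copies with at least 95% identity over at least 200 bases exist for 21 members, and the copies held counts of at least 5% of the parent gene for 3 of them, Ndufs5, Atp5l and Atp5g2. Ndufs5, an accessory subunit of complex I (chr4:123712710-123718202, -), and its copy BC002163 (chr16:42955631-42955949, +) share 99.4% of 319 bases. Over the 318 coding bases they differ by the substitutions T81C and A105G, counted from the first coding base with the base of Ndufs5 first. Coding bases 33 to 152 are shown because they hold both differences, in capitals.
Ndufs5: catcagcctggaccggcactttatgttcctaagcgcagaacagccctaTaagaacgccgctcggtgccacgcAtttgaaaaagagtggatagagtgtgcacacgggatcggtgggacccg
BC002163: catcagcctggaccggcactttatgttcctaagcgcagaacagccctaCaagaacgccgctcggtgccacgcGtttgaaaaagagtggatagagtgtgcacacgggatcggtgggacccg

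Ndufs5 itself had 8, 117, 96 and 21 counts in J3, J5, J6 and J7 and 15, 125, 13 and 15 in K14J26, K14J28, K14J29 and K14J30. Embryos of both groups were high (J5, J6 and K14J28) and the other 5 were low. BC002163 had 145, 121, 71 and 193 counts in WT and 150, 122, 230 and 208 in K14Cre;Jagged1fl/fl. The sum of both lay between 7.23 and 9.81 CPM in all 8 embryos, while Ndufs5 alone ranged from 0.443 to 4.98 CPM. The log2 fold change of Ndufs5 was -0.86 (SE 0.90, adjusted p = 0.525 by edgeR), and -0.04 (adjusted p = 0.836) with the counts of the copy added. Without the copy it moved to -2.24 when K14J28 was left out and to -0.42 when J6 was. How reads matching both places were counted is not given in the sources used here, so neither value is the full level of the gene.

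Cox7a2l (chr17:83501918-83517330, -) and its copy Gm6969 (chr12:24638669-24639010, -) gave the other split. The copy holds 6 extra bases after coding base 213 and the substitutions T214A and C303T. A short form of Cox7a2l, which the reference strain C57BL/6 carries, lacks a few bases that other mouse strains have. Coding bases 153 to 272 are shown with the extra bases and the first substitution in capitals.
Cox7a2l: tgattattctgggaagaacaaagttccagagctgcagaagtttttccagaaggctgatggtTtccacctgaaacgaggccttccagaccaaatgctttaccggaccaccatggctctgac
Gm6969: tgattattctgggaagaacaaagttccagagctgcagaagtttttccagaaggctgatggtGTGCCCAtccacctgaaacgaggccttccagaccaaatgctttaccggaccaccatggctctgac

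Gm6969 had 1, 5, 2 and 4 counts in J3, J5, J6 and J7, 4 in K14J26 and 3 in K14J29, but 584 in K14J28 and 573 in K14J30. Cox7a2l was lowest in the same 2 embryos, at 130 CPM in K14J28 and 146 CPM in K14J30, against 165 to 190 CPM in the other 6. With the copy added, K14J28 stood at 150 CPM and K14J30 at 168 CPM. The log2 fold change was -0.15 (SE 0.11, adjusted p = 0.372) without the copy and -0.05 (adjusted p = 0.651) with the copy added, and it was -0.07 without K14J28 and -0.24 without K14J26. The reads themselves were not used here, and which allele each embryo carried was not tested.

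**Figure D5:**
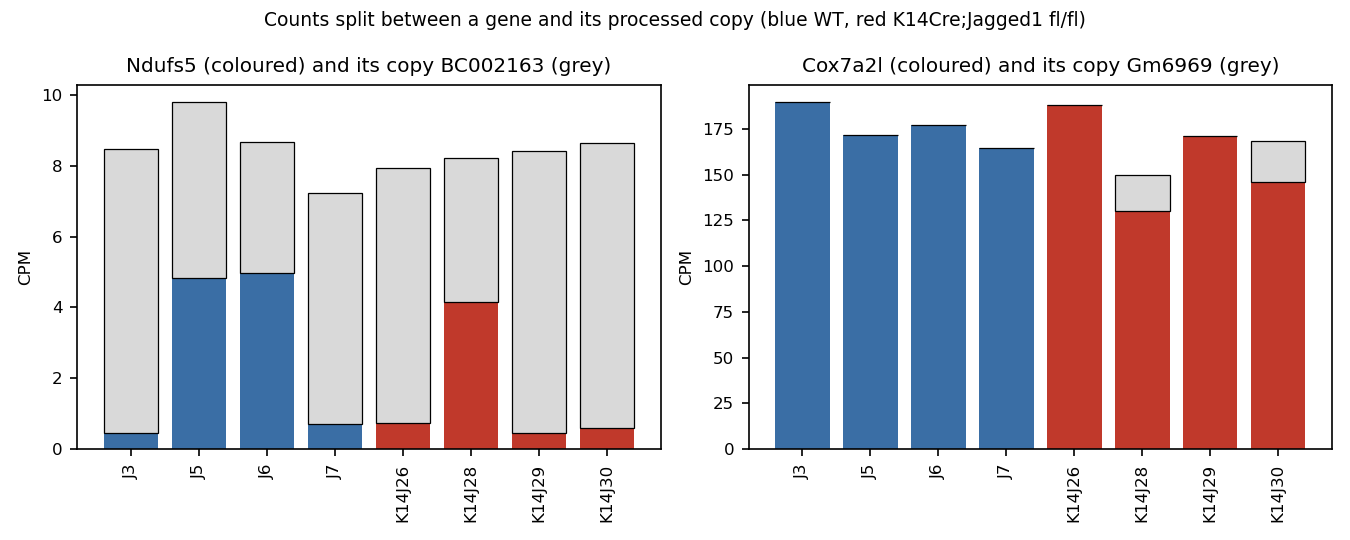
Level (CPM) of Ndufs5 and of Cox7a2l by embryo, with the count of the processed copy stacked above in grey, for 4 WT (blue) and 4 K14Cre;Jagged1fl/fl (red) embryos. The Ndufs5 bars vary while the sums stay between 7.23 and 9.81 CPM, and the copy of Cox7a2l is visible in K14J28 and K14J30 only.

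Other genes of the pathway were taken from lists outside the naming rule. Their counts by edgeR after adjustment stand beside 9.52% of all tested genes called higher and 6.61% called lower. Counts at an unadjusted p under 0.05 stand beside 19.1% and 15.7%, and those by DESeq2 beside 13.1% and 10%. Of the 13 subunits encoded by mitochondrial DNA, 7 were tested, and all 7 estimates were negative, from -0.40 to -0.14. Of these, mt-Nd2 (-0.40, SE 0.08, adjusted p = 0.0156), mt-Nd1 (-0.32, SE 0.08, adjusted p = 0.0312) and mt-Cytb (-0.27, SE 0.07, adjusted p = 0.0358) fell. At an unadjusted p under 0.05, 5 of the 7 were lower and none higher, and DESeq2 called 5 lower and none higher. The 3 calls were all lost without J7 and without K14J29, and 1 of the 7 was called lower without any one of J3, J5, J6 or K14J30. All 7 estimates stayed negative when each of the 8 embryos was left out. With the length and GC trend removed, 1 of the 7 was called lower, and their median moved from -0.27 to -0.14. Of 18 alternative fits, mt-Nd2 was called in 15, mt-Nd1 in 9 and mt-Cytb in 8. mt-Nd2 was at 2500 to 2762 CPM in WT and at 1926, 2189, 1949 and 1815 CPM in K14J26, K14J28, K14J29 and K14J30. mt-Co1, the catalytic subunit of complex IV, was at 9668 to 10777 CPM against 8295 to 10043 CPM (-0.14, SE 0.08, adjusted p = 0.255). The other 6 had at most 7 counts in any embryo, and 1 of them none, so they are not read as levels.

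Of the 38 assembly factors of complexes II to V, Ttc19, a factor of complex III (0.28, SE 0.08, adjusted p = 0.0374), and Cox17, a copper chaperone of complex IV (0.47, SE 0.11, adjusted p = 0.0238), rose and none fell, which is 2 of 38 where 9.52% of all genes rose. At an unadjusted p under 0.05, 4 were higher and none lower by edgeR, and DESeq2 called 3 higher and none lower. None of the 8 tested assembly factors of complex I outside the naming rule was called by edgeR, with 1 higher and 1 lower without adjustment, and DESeq2 called 1 higher. Among 18 genes of the citric acid cycle and pyruvate dehydrogenase, Ogdh (0.32), Dlst (0.23) and Pdhx (0.36) rose on the log2 scale and none fell. Without adjustment 4 of the 18 were higher and 3 lower, and DESeq2 called 3 higher and 1 lower. None of 18 regulators of mitochondrial biogenesis was called by edgeR, with 2 higher and 2 lower without adjustment, and DESeq2 called 1 higher. Among 22 genes of import and inner membrane structure, the import receptor Tomm20 (-0.32, SE 0.07, adjusted p = 0.0176) and the prohibitin Phb2 (-0.27, SE 0.06, adjusted p = 0.0250) fell and none rose. At an unadjusted p under 0.05, 7 of the 22 were lower and none higher, DESeq2 called 5 lower and none higher, and the median was -0.14. Of 19 alternative fits, Tomm20 was called in 16, Phb2 in 12, Cox17 in 14, Ogdh in 12, Ttc19 in 9, Pdhx in 7 and Dlst in 6, with the sign kept in all 19.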

How the data were processed

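The authors sequenced polyadenylated RNA of 8 molar samples with an unstranded kit, trimmed the reads and aligned them with STAR, and the processing notes in the labels also name featureCounts and GRCm38.p3. They deposited 1 table of raw counts per embryo, with 43629 Ensembl genes and no normalization. RNA extraction is described differently in the labels and the methods. Of the identifiers, 42462 were found in GENCODE M21, which gave symbols, positions and lengths.

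Genes reaching 10 counts in 2 or more embryos of either group were tested with edgeR 4.0.16 (R 4.3.3, TMM, glmQLFit and glmQLFTest, no covariates) and Benjamini-Hochberg adjustment, as planned from the study's methods. The SE was obtained from the fold change and the F statistic, and intervals are at 95%. Deviations use log2 CPM with a prior count of 2. DESeq2 1.42.0, other scalings and filters, a length and GC trend, Xist as a covariate and left-out embryos were alternatives. Copies were found with blastn 2.17.0+. Totals of 17327224 to 29792467 counts make 3 counts equal to at most 0.166 CPM, and 4 embryos per group also limit the precision. The sources do not say that embryos of a group came from separate litters, and p-values measure the spread between these embryos.

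Genes named were those called, the 3 highest per length, 3 largest changes and 3 lowest p of each complex, the isoform groups, X-linked members and members past the study's criteria. Members and lists were chosen with earlier results of these data known. Exons of 25 members overlap a gene on the opposite strand, whose reads an unstranded kit cannot separate, among the named genes Atp5a1, Ndufa2, Ndufa11, Ndufa4l2, Ndufb11, Uqcrb, Uqcrc2, Cox4i1 and Cox6a2.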

Additional observations from a re-analysis of the deposited data

Results flagged for a closer look

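In each group of 4 embryos, the level of 43 named members and the median deviation of each complex and of all members were searched for 1 embryo that stood apart from the other 3 (Dixon's test at 95%). Of 98 groups of values searched, 6 stood out, and chance alone gives about 1 in 20. K14J28 accounted for 4 of them. The complex IV median deviation was -0.10 (log2) there against 0.01 to 0.03 in the other K14Cre;Jagged1fl/fl embryos. Ndufs5 was at 4.16 CPM against 0.451 to 0.721 CPM, Uqcrb at 88.8 CPM against 90.4 to 90.5 CPM, and Uqcrh at 185 CPM against 201 to 204 CPM. Cox7c was at 68.3 CPM in K14J26 against 76.7 to 78.3 CPM in the other 3. In WT, Atp5c1 (the gamma subunit of the ATP synthase) was at 259 CPM in J3 against 239 to 241 CPM in the rest.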

How the results depend on the processing

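With 3 of 91 members called, a single embryo decides the counts. Leaving out 1 embryo at a time gave 0 to 4 members higher and 0 to 6 lower at an adjusted p under 0.05, and 0 to 1 higher and 1 to 5 lower by the study's criteria. The counts over all genes moved too, from 9.52% higher and 6.61% lower with every embryo to between 1.48% and 14.6% higher and 1% and 10.9% lower. The 4 higher and 6 lower calls came without K14J28, where both shares were highest, and no member was called without J5, J7 or K14J29, where 1.48% to 2.65% of all genes were higher and 1% to 2.28% lower. Without both J6 and J7, 0 members were lower, 0 were higher by the study's criteria, and 3 and 4 genes of the whole table were called higher and lower. The lower count was 5 with upper-quartile scaling (8.45% of all genes), 1 with library size only (6.19%), 8 with DESeq2 (10%) and 0 with Xist as a covariate (3.56%), and 1 member was higher with DESeq2 (Ndufa1) and 1 with the length and GC trend removed (Cox6a1). By the study's criteria, library size only gave 0 higher and 4 lower, and a minimum of 50 counts gave 0 lower.

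Library size without further scaling moved the median of all genes from 0.01 to -0.09, and that of the members to -0.123, of complex I to -0.116, II to -0.152, III to -0.0875, IV to -0.112 and V to -0.146. With Xist as a covariate the median of complex V was 0.0135. The median level of the members was 43.1 CPM per kilobase of merged exons and 79.0 with principal transcript lengths, an alternative chosen after seeing the data, as were adding copies and recounting the other pathway genes. Leaving out 1 embryo kept the median of all members between -0.0451 and -0.000851, of complex I between -0.0431 and 0.0124, II between -0.0982 and -0.00921, III between -0.0174 and 0.0386, IV between -0.0332 and 0.0270 and V between -0.0770 and 0.00300.

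Among 43 named members, 21 of 808 alternative estimates changed sign, in genes with small log2 estimates, the largest being 0.10 for Ndufaf1. With upper-quartile scaling these were Ndufb11 (-0.00575), Cox4i1 (-0.0149) and Cox7b (-0.00143), and with library size only Ndufb11 (-0.0703), Uqcrb (-0.0518), Cox4i1 (-0.0759), Cox6b1 (-0.0405) and Cox7b (-0.0608). Uqcrh turned with Xist as a covariate (0.0301), and with the length and GC trend removed Uqcrh (0.0591) and Sdhd (0.00956) did. Without J6 and J7, Cox4i1 was -0.00171, Cox6b1 -0.00432 and Ndufaf1 -0.00739. Leaving out 1 embryo moved Uqcrh between -0.0451 and 0.0278, Ndufb11 between -0.0228 and 0.101, Sdhd between -0.0958 and 0.0264, Cox4i1 between -0.00290 and 0.0669 and Atp5b between -0.0415 and 0.0116. The causes were not tested. No paired analysis was possible because the sources do not say which embryos of the groups shared a litter.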
